A study of Mus musculus with 6 samples.

Results

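The Wnt family was described in tongues of mouse embryos as its ligands, its Frizzled receptors, the R-spondins with their Lgr receptors, the secreted antagonists, and the transcription factor Lef1 with the feedback genes Axin2, Nkd1, Nkd2 and Notum. Members were chosen by gene symbol, while the Wnt genes as a group were chosen with earlier results of these data known. Every gene of these families was taken that has a probe set (a group of probes for 1 transcript) with a single gene symbol. This gave 51 genes of 18193, and Tcf7, which the choice also names, was not analysed here. Total RNA of embryonic day 14.5 tongues of the strain C57BL/6J was hybridised to 6 Affymetrix arrays. The 3 mutants had the genotype Tgfbr2 fl/fl; Wnt1-Cre, in which a recombinase driven by Wnt1 regulatory sequences deletes the floxed gene for the type II TGF-beta receptor in cells of neural crest origin. The 3 controls were Tgfbr2 fl/fl without Cre, although their titles call them wildtype, so both groups carry the floxed alleles and an effect of the Cre transgene itself cannot be told apart from the deletion. The comparison addresses what loss of this receptor in the crest-derived cells does to gene expression while the tongue muscle forms. The epithelium, the muscle fibres and the endothelium of the blood vessels in the tongue do not come from the neural crest and keep the receptor gene in this design. No label says whether the embryos came from separate litters, so the p-values reflect only how much these 6 samples vary, which may be technical.

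Wnt proteins are secreted, lipid-modified ligands that bind Frizzled receptors. Through the co-receptors Lrp5 and Lrp6 they stabilise beta-catenin, which acts with Lef1 and Tcf proteins on target genes such as Axin2, Nkd1 and Notum. Other Wnts, Wnt5a above all, act mainly on cell polarity and movement without beta-catenin. R-spondins bind Lgr receptors and keep Frizzled receptors at the cell surface, whereas Dkk proteins block the co-receptors and Sfrp proteins, Frzb and Wif1 bind the ligands. In the embryonic tongue, Wnt signalling is known for the outgrowth of the tongue and for the placement of the taste papillae.

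Values are log2 expression, so a difference of 1 is a doubling, and levels of different genes are not compared because each probe set has its own brightness. Mutant array 1 lay apart from the other 5 arrays: its correlations with them over 13645 tested genes were 0.966 to 0.978, against 0.9924 between the other 2 mutants and up to 0.9976 among the controls. Tgfbr2 itself read 11.16, 11.79 and 11.69 in the mutants (here and below in the order of arrays 1, 2 and 3) and 11.55, 11.82 and 11.80 in the controls, groups that overlap, with a log2 difference of -0.18 (adjusted p = 0.642, limma). The sources used here do not place the probes within the gene, and cells outside the neural crest keep it, so these values do not test the genotypes. A bulk array cannot tell fewer cells of a type from less RNA per cell, and this holds for every difference below.

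Of the 51 genes, 43 passed the filter on dim genes and were tested. Wnt10a rose and Fzd8 fell in the mutants at an adjusted p under 0.05 (limma with Benjamini-Hochberg adjustment over all tested genes), 4.65% of the 43 beside 2.14% of all genes tested. Of all genes 1.32% rose and 0.821% fell by this rule. The groups did not overlap for 16 of the 43, with 9 higher and 7 lower in the mutants, or 37.2% beside 25.1% of all genes tested. Of all genes 13.6% were higher and 11.5% lower without overlap. An unadjusted p under 0.05 was reached by 13 of the 43, or 30.2% beside 16.9%, and a fold of more than 1.5 by 9, or 20.9% beside 5.46%. The shares of 2.14% for calls and 16.9% for an unadjusted p under 0.05 are also the background for each role and list below. In groups of so few genes, 0 calls is near that share. Of the log2 differences 21 were above 0 and 22 below. The share above 0 was 48.8%, beside 53.4% of all tested genes, so a split in direction is not particular to the family. The median was -0.0033 beside 0.016 over all tested genes, and the range ran from -0.87 for Wnt5a to 0.90 for Wnt10a.

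**Figure D1:**
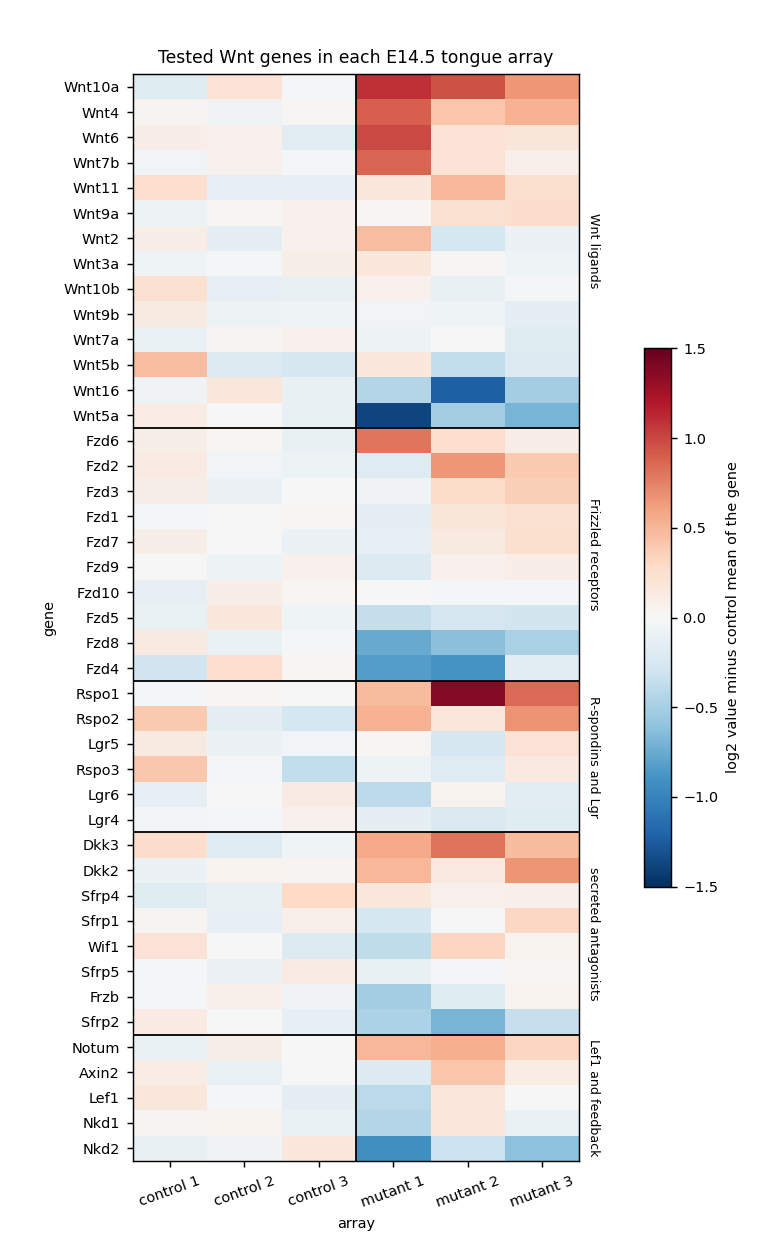
Each row is 1 of the 43 tested Wnt genes, ordered within its role by the difference between the groups, and each column is 1 array. Colour gives the log2 value minus the mean of that gene in the 3 control arrays. Wnt10a and Wnt4 are above the control mean in all 3 mutant arrays and Wnt5a, Fzd8 and Nkd2 below it. Mutant array 1 alone has strong colour for Wnt6, Wnt7b and Fzd6.

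The replicate numbers of the titles can be used to pair mutant and control arrays, but no label states such a pairing and it is only weakly supported. With these numbers as a block in limma, 4 of the 43 passed beside 3.59% of all genes: Wnt10a, Fzd8, Wnt4 (adjusted p = 0.0457) and Rspo1 (adjusted p = 0.0407). Without mutant array 1, 6 passed beside 4.91% of all genes: these 4 together with Wnt5a and Fzd2. When mutant array 2 or any of the 3 control arrays was left out, 0 passed in limma, with 11 to 14 at an unadjusted p under 0.05. That unadjusted p was reached by 2100 of all 13645 genes without mutant array 2. Without control arrays 1, 2 and 3 it was reached by 1872, 1339 and 1369. Few genes passed in these fits at all: 0.645% of all genes without mutant array 2, and 1.04%, 0.117% and 0.139% without control arrays 1, 2 and 3, so the count of 0 is near the share over all genes.

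**Figure D2:**
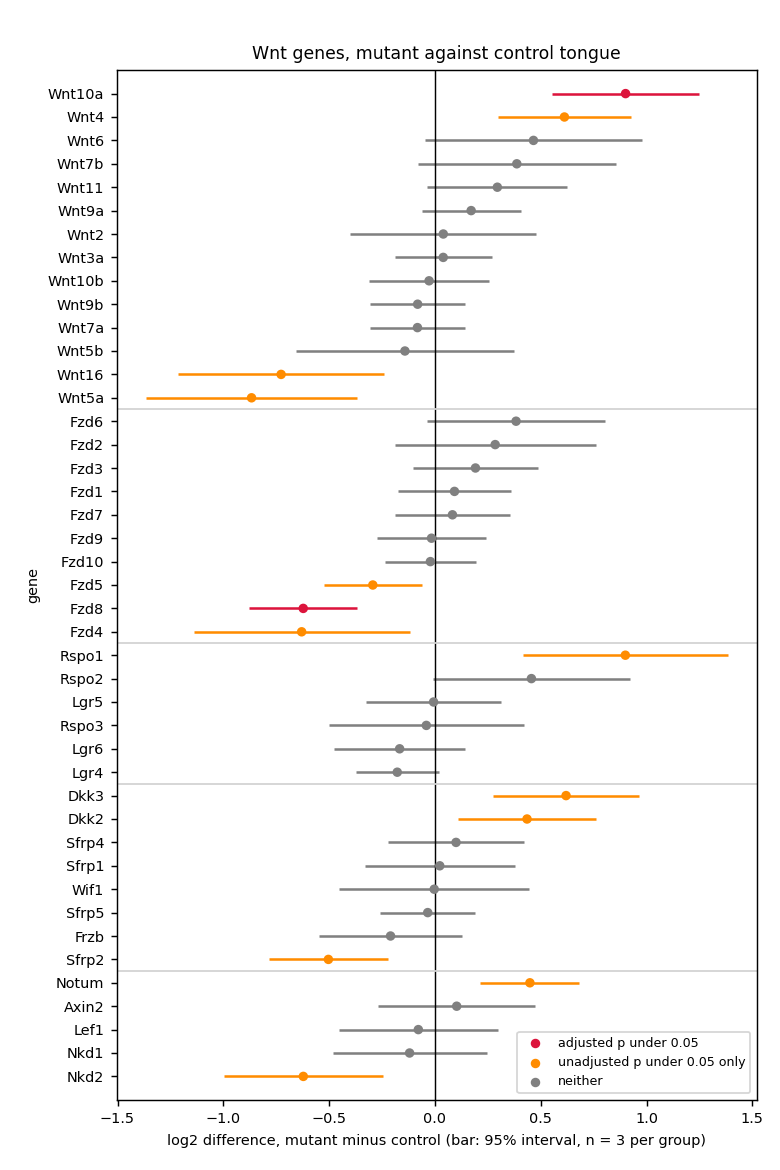
Points are log2 differences, mutant minus control, of the 43 tested Wnt genes, and bars are their 95% intervals from limma with 3 arrays per group. Grey lines divide the roles in the order ligands, Frizzled receptors, R-spondins with Lgr receptors, secreted antagonists, and Lef1 with feedback genes. The intervals of Wnt10a (0.55 to 1.25) and Fzd8 (-0.88 to -0.37), the pair that passed the adjusted threshold, lie on opposite sides of 0.

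Among the ligands, 14 of 19 were tested, and Wnt10a was the only one that passed. Wnt10a, a ligand known for the development of teeth, hair and taste papillae, read 9.02, 8.88 and 8.58 in the mutants and 7.75, 8.14 and 7.90 in the controls. Every mutant value lay above every control value. Its mean rose from 7.93 ± 0.20 to 8.83 ± 0.22 (SD, n = 3 per group), a log2 difference of 0.90 or 1.87-fold (standard error 0.15, adjusted p = 0.0298, limma). The difference was between 0.81 and 1.02 when any 1 array was left out, but the call was lost without mutant array 2 (adjusted p = 0.107), control array 1 (0.105), control array 2 (0.0909) or control array 3 (0.162), and with the Xist level as a covariate (0.0639).

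Wnt4, a ligand of epithelia and of the developing kidney and gonad, read 10.02, 9.54 and 9.64 in the mutants and 9.16, 9.06 and 9.14 in the controls. Its groups did not overlap, and mutant array 1 was the highest. The log2 difference was 0.61 (95% interval 0.30 to 0.92), with an adjusted p of 0.0751 without the block. A further probe set of Wnt4 gave 0.43. Wnt6 and Wnt7b, both known from embryonic surface epithelia, gave differences of 0.47 and 0.39 (adjusted p = 0.338 and 0.379), and these fell to 0.20 and 0.14 without mutant array 1. A further probe set gave 0.51 for Wnt6 (unadjusted p = 0.0345, limma) and 0.24 for Wnt7b (unadjusted p = 0.245). Wnt6 and Wnt10a are next to each other among the protein-coding genes of the RefSeq table (assembly GRCm38.p6). The other tested pair of neighbouring ligand genes, Wnt3a and Wnt9a, gave 0.039 and 0.17 (adjusted p = 0.872 and 0.435).

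Epithelial markers differed in the same direction as these 4 ligands, which had the highest differences of the 14 tested ligands. Wnt3a, Wnt7a, Wnt9b and Wnt10b, also tested, gave 0.039, -0.083, -0.082 and -0.028. Of 14 epithelial marker genes, all tested, 13 had a higher mean in the mutants, with a median difference of 0.66. None passed the adjusted threshold in limma, and 10 had an unadjusted p under 0.05. The smallest adjusted p-values were those of the basal keratin genes Krt15 (0.0595) and Krt14 (0.0605). The summed linear level of all 14 markers was 24813 to 40613 in the mutants and 19638 to 21036 in the controls, and none of the 14 lay under the filter value. Relative to the controls the median of these markers was 1.15, 0.59 and 0.31 in mutant arrays 1, 2 and 3. Wnt10a stood at 1.09, 0.96 and 0.65, Wnt4 at 0.90, 0.42 and 0.52, Wnt6 at 1.00, 0.22 and 0.18, and Wnt7b at 0.88, 0.21 and 0.073. Mutant array 1 was the highest for the markers and for each of these ligands. The part of the epithelial share in the ligand values was not tested.

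**Figure D3:**
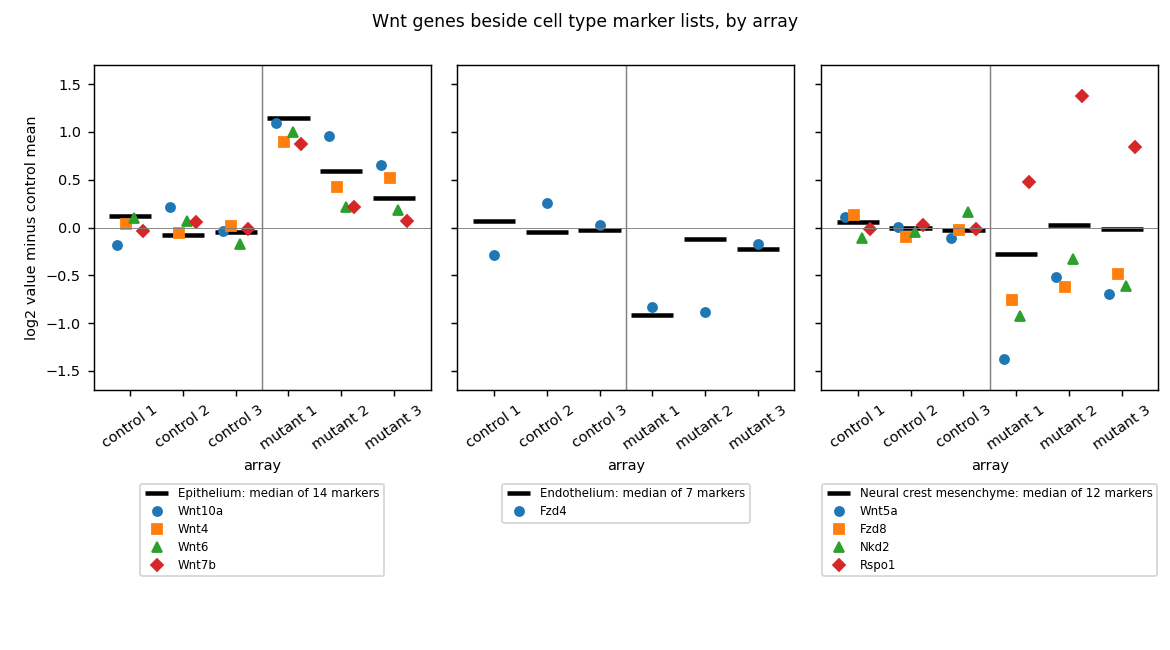
Symbols are Wnt genes and black bars the medians of marker lists, as log2 value minus control mean, for each of the 6 arrays. On the left, the epithelial median is 1.15 in mutant array 1, where Wnt10a, Wnt4, Wnt6 and Wnt7b are also at their highest. In the middle, Fzd4 and the endothelial median are both below 0 in all 3 mutant arrays, and on the right Wnt5a, Fzd8 and Nkd2 lie below the mesenchymal median in all 3 mutant arrays, and Rspo1 above it.

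Wnt5a, the ligand of mesenchymal outgrowth and cell polarity, was among the ligands with lower values. It read 9.13, 10.00 and 9.82 in the mutants and 10.62, 10.52 and 10.41 in the controls, and the groups did not overlap. Mutant array 1 was the lowest by far. The chosen probe set gave a log2 difference of -0.87 (95% interval -1.37 to -0.37, adjusted p = 0.103), and -0.61 without mutant array 1 (adjusted p = 0.0203). Further probe sets of Wnt5a gave -0.99, -0.95 and, for one under the filter value, -0.092, and the first of these passed when every probe set was tested on its own (adjusted p = 0.0442). Wnt16 read 7.17, 6.40 and 7.09 in the mutants and 7.56, 7.78 and 7.50 in the controls, again without overlap, a difference of -0.73 (95% interval -1.21 to -0.24, adjusted p = 0.142).

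The markers of neural crest mesenchyme had a median difference of -0.045 over 12 tested genes, of which 5 had a higher and 7 a lower mean in the mutants. Limma called 0 of them, with 1 at an unadjusted p under 0.05. Their summed linear level was 29547 to 47211 in the mutants and 43320 to 48207 in the controls, and none of the 12 lay under the filter value. In mutant arrays 1, 2 and 3 their median relative to the controls was -0.28, 0.025 and -0.013, where Wnt5a stood at -1.38, -0.52 and -0.70. The part of mesenchymal content in the Wnt5a values was not tested.

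The other 8 tested ligands gave differences between -0.14 and 0.30 and adjusted p-values from 0.347. Wnt11, a ligand of cell movement, had the largest of these at 0.30 (95% interval -0.04 to 0.63). Wnt10b, which shares a branch of the family with Wnt10a, gave -0.028 (95% interval -0.31 to 0.26), without the difference seen for Wnt10a; the contrast between the genes was not tested. Wnt3a, Wnt7a, Wnt9a, Wnt9b, Wnt2 and Wnt5b had intervals that include 0, the widest being -0.66 to 0.37 for Wnt5b.

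**Figure D4:**
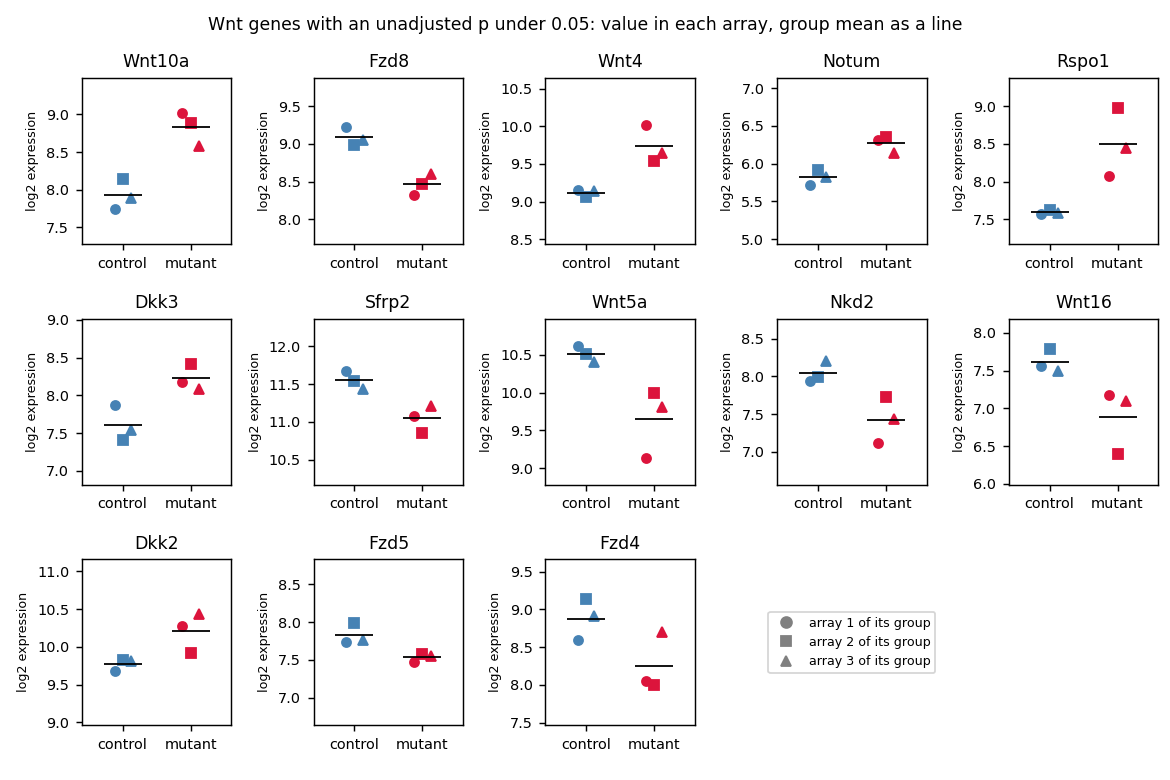
Log2 expression in each array is shown for the 13 tested Wnt genes with an unadjusted p under 0.05, in order of p, with control arrays in blue, mutant arrays in red and the group mean as a line. Every panel spans the same range on the log2 scale. The groups are apart in all panels except that of Fzd4, where mutant array 3 (8.70) lies above control array 1 (8.59).

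All 10 Frizzled receptor genes were tested, and Fzd8 alone passed. Fzd8 read 8.33, 8.46 and 8.60 in the mutants and 9.22, 8.98 and 9.06 in the controls. The 3 mutants were all below the controls. The mean fell from 9.09 ± 0.12 to 8.46 ± 0.13 (SD, n = 3 per group), a log2 difference of -0.62 or 1.54-fold lower (standard error 0.11, adjusted p = 0.0360, limma). A further probe set of Fzd8 gave -0.71, while the mean of both missed the threshold (-0.67, adjusted p = 0.0532). The call was lost without mutant array 2 (adjusted p = 0.113), control array 1 (0.122), control array 2 (0.141) or control array 3 (0.172), and with the Xist level as a covariate (0.0885); the differences over the fits that left out 1 array were -0.69 to -0.56.

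Fzd5, the closest relative of Fzd8 in the family, read 7.48, 7.58 and 7.55 in the mutants against 7.74, 7.99 and 7.77 in the controls, also without overlap. Its difference was smaller, -0.29 (95% interval -0.53 to -0.06, adjusted p = 0.201). Fzd4, the receptor of the vascular ligand norrin, read 8.05, 7.99 and 8.70 in the mutants and 8.59, 9.13 and 8.91 in the controls, groups that overlap. Its difference was -0.63 (95% interval -1.14 to -0.12, adjusted p = 0.210), and 2 further probe sets gave -0.71 and -0.73, the latter dim. Of 7 tested endothelial markers 6 had a lower mean in the mutants, with a median of -0.39. Limma called 0 of them, with 1 at an unadjusted p under 0.05. Their summed linear level was 1115 to 1929 in the mutants and 1941 to 2133 in the controls, and none of the 7 lay under the filter value. In mutant arrays 1, 2 and 3 the endothelial median relative to the controls was -0.91, -0.12 and -0.23, where Fzd4 stood at -0.83, -0.89 and -0.17. The endothelial part in the Fzd4 values was not tested.

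The remaining Frizzled genes gave smaller or less even differences. Fzd6, a receptor of epithelial polarity, gave 0.38 without overlap of the groups (adjusted p = 0.338) and 0.18 without mutant array 1. Fzd2 gave 0.28 (adjusted p = 0.518), and without mutant array 1 it passed at 0.52 (adjusted p = 0.0456). Its further probe sets gave -0.18 and -0.11, so the direction of Fzd2 depends on the probe set. Fzd1, Fzd3, Fzd7, Fzd9 and Fzd10 gave differences between -0.021 and 0.19, and their intervals reached no lower than -0.27 and no higher than 0.49. A dimmer probe set of Fzd1 gave -0.25 (unadjusted p = 0.0459, limma) against 0.092 for the chosen one, so no direction can be given for Fzd1.

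Of the R-spondins and their receptors, 6 of 7 genes were tested and 0 passed in limma, with 1 at an unadjusted p under 0.05. That gene, Rspo1, encodes a secreted booster of Wnt signalling and read 8.08, 8.97 and 8.44 in the mutants against 7.58, 7.62 and 7.58 in the controls. All 3 mutants exceeded all 3 controls, and the mutants were widely spread while the controls lay close together. The difference was 0.90 or 1.87-fold (95% interval 0.42 to 1.38, adjusted p = 0.0873), and 1.11 without mutant array 1 (adjusted p = 0.0112). Rspo2, whose loss is known to impair limb and craniofacial growth, gave 0.46 (95% interval -0.01 to 0.92, adjusted p = 0.308), and its further probe set -0.042. Rspo3 gave -0.041 (95% interval -0.50 to 0.42).

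The receptor gene Lgr4 read 11.62, 11.53 and 11.56 in the mutants and 11.70, 11.73 and 11.81 in the controls, apart by a small difference of -0.18 (adjusted p = 0.337). Lgr5, a marker of epithelial stem cells, gave -0.006 (95% interval -0.32 to 0.31) and Lgr6 gave -0.17 (95% interval -0.48 to 0.14).

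Among the secreted antagonists, 8 of 10 genes were tested, 0 passed in limma and 3 had an unadjusted p under 0.05. Dkk3, a divergent Dkk protein, read 8.18, 8.42 and 8.08 in the mutants and 7.87, 7.41 and 7.54 in the controls. Dkk2, which binds the co-receptors, read 10.28, 9.92 and 10.43 in the mutants and 9.68, 9.82 and 9.82 in the controls. Both had groups apart with the mutants higher. The differences were 0.62 for Dkk3 (95% interval 0.28 to 0.96, adjusted p = 0.0942) and 0.44 for Dkk2 (95% interval 0.11 to 0.76, adjusted p = 0.179), and a further probe set of Dkk3 gave 0.24.

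Sfrp2, a secreted Frizzled-related protein of embryonic mesenchyme, differed in the opposite direction. It read 11.08, 10.86 and 11.21 in the mutants and 11.68, 11.54 and 11.43 in the controls, with every mutant below every control. The difference was -0.50 (95% interval -0.78 to -0.22, adjusted p = 0.0963). Its relative Sfrp1 read 9.68, 9.95 and 10.25 in the mutants and 9.98, 9.81 and 10.02 in the controls. The Sfrp1 groups overlapped, with the mutants on both sides of the controls, and the difference was 0.023 (95% interval -0.33 to 0.38).

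Frzb, an antagonist of cartilage and mesenchyme, read 6.20, 6.52 and 6.76 in the mutants against 6.68, 6.77 and 6.65 in the controls, a difference of -0.21 (95% interval -0.55 to 0.13). Sfrp4 read 6.84, 6.74 and 6.75 in the mutants against 6.49, 6.56 and 6.97 in the controls, a difference of 0.10 (95% interval -0.22 to 0.42). Groups overlapped for both genes. Sfrp5 read 6.25, 6.35 and 6.40 in the mutants and 6.34, 6.28 and 6.49 in the controls, a difference of -0.034, and a dimmer probe set gave 0.42 with an unadjusted p of 0.0397, so no direction can be given for it. Wif1, which binds Wnt ligands, gave -0.0033 (95% interval -0.45 to 0.45).

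The feedback genes gave differences in both directions. Limma called 0 of 5 genes in this role, with 2 at an unadjusted p under 0.05. Axin2, a widely used readout of beta-catenin signalling, read 8.19, 8.81 and 8.50 in the mutants and 8.51, 8.30 and 8.39 in the controls. The mutants lay on both sides of the controls, with array 1 the lowest of all 6. The Axin2 difference was 0.10 (95% interval -0.27 to 0.47, adjusted p = 0.778), and 0.26 without mutant array 1 (adjusted p = 0.268).

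Lef1, the transcription factor that beta-catenin joins on DNA, read 8.18, 8.75 and 8.58 in the mutants and 8.75, 8.56 and 8.45 in the controls, a difference of -0.078 (95% interval -0.45 to 0.30). Nkd1, which encodes an inhibitor of Dishevelled, read 8.40, 9.01 and 8.74 in the mutants and 8.88, 8.90 and 8.74 in the controls, a difference of -0.12 (95% interval -0.48 to 0.24). In both genes mutant array 1 was the lowest and the groups overlapped. Without that array the differences were 0.083 for Lef1 and 0.038 for Nkd1, so neither sign was kept. A further probe set of Lef1, dimmer but above the filter value, gave -0.50 (unadjusted p = 0.107), and the mean of both probe sets -0.29, so the size of the Lef1 difference depends on the probe set.

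Nkd2, the relative of Nkd1, read 7.12, 7.72 and 7.43 in the mutants and 7.94, 7.999 and 8.21 in the controls, with the mutants all lower. Notum, which encodes an enzyme that inactivates Wnt ligands by removing their lipid, read 6.32, 6.35 and 6.14 in the mutants and 5.72, 5.91 and 5.82 in the controls, with the mutants all higher. The pair thus differed in opposite directions. The differences were -0.62 for Nkd2 (95% interval -0.998 to -0.246, adjusted p = 0.116) and 0.45 for Notum (95% interval 0.22 to 0.68, adjusted p = 0.0790). Further probe sets of Nkd2 gave -0.96, -0.62 and -0.12, and the one at -0.62 passed when every probe set was tested on its own (adjusted p = 0.0461). Notum has 1 probe set, whose name marks probes that match more than 1 transcript, which can be of the same gene. Of the 43 chosen probe sets of tested genes, 4 have a name that marks shared transcripts: those of Notum, Wnt10b, Wif1 and Wnt5b.

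The RefSeq promoter windows of the 4 genes with the smallest p among those with a window are shown, so that the starts of genes with higher values (Wnt4, Rspo1) can be read beside those with lower ones (Sfrp2, Nkd2). No window was found for Wnt10a and Fzd8, the genes that passed, nor for Notum, Dkk3 and Wnt5a. Each window runs from 250 bases before to 50 after the annotated start, build GRCm38.p6, 5′ to 3′ on the strand of the gene: Wnt4 at chr4:137277385-137277684 (plus strand), Rspo1 at chr4:124986180-124986479 (plus strand), Sfrp2 at chr3:83766071-83766370 (plus strand) and Nkd2 at chr13:73847582-73847881 (minus strand). Capitals mark the core letters of the site that Smad proteins bind, CAGAC or GTCTG on the other strand.
Wnt4: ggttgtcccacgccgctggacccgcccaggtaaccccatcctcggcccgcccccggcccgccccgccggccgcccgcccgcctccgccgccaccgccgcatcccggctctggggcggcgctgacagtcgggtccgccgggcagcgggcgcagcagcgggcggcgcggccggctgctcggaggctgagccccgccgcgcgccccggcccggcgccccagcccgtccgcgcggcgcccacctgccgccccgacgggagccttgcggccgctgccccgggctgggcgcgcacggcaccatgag
Rspo1: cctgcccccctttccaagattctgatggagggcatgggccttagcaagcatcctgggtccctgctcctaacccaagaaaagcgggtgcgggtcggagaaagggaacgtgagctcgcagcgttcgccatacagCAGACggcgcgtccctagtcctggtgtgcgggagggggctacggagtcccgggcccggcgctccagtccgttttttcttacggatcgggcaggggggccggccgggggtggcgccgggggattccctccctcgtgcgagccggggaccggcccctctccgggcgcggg
Sfrp2: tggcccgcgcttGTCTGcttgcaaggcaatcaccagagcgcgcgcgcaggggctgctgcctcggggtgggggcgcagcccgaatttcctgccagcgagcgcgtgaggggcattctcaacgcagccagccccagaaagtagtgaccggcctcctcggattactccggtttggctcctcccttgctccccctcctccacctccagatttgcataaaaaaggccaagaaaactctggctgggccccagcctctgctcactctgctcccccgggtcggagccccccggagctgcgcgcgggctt
Nkd2: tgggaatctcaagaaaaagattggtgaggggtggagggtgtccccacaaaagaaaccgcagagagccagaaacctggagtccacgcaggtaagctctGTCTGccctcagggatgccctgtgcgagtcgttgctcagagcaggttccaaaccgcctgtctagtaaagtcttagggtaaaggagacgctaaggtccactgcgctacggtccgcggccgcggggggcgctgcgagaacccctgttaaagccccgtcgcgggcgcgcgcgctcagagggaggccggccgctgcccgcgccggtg
Rspo1, Sfrp2 and Nkd2 hold 1 Smad core each and Wnt4 holds 0, in a window that is 84.3% G or C. The core of the TCF/LEF motif, CTTTGA or TCAAAG on the other strand, is in 0 of the 4. Windows were found for 35 of the 51 genes, 41 windows in all. A Smad core is in 51.2% of them and in 49.6% of all 32851 windows. A TCF/LEF core is in 6 of the 41 and in 5257 of the 32851. A match is a run of letters only, and no match says nothing on the factor.

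Under the filter value of 5.17 lay 8 genes, which were not tested: Wnt1, Wnt2b, Wnt3, Wnt8a, Wnt8b, Rspo4, Dkk1 and Dkk4. For Wnt1, whose regulatory sequences drive the Cre, the means were 4.76 in the mutants and 4.67 in the controls. Dkk1, an antagonist of the co-receptors and a known target of Wnt signalling, read 4.33, 4.57 and 4.36 in the mutants and 4.73, 5.30 and 5.34 in the controls. Dkk4, known from ectodermal placodes and the taste papillae, read 4.53, 4.59 and 4.31 in the mutants and 4.82, 4.97 and 5.58 in the controls. In both the mutants were all lower. With no filter their differences were -0.70 for Dkk1 (adjusted p = 0.107) and -0.65 for Dkk4 (adjusted p = 0.173), sizes that are uncertain so close to the background. The other 6 differed by -0.11 to 0.26 with overlapping groups. None of the 43 tested genes had a group mean under the filter value.

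**Figure D5:**
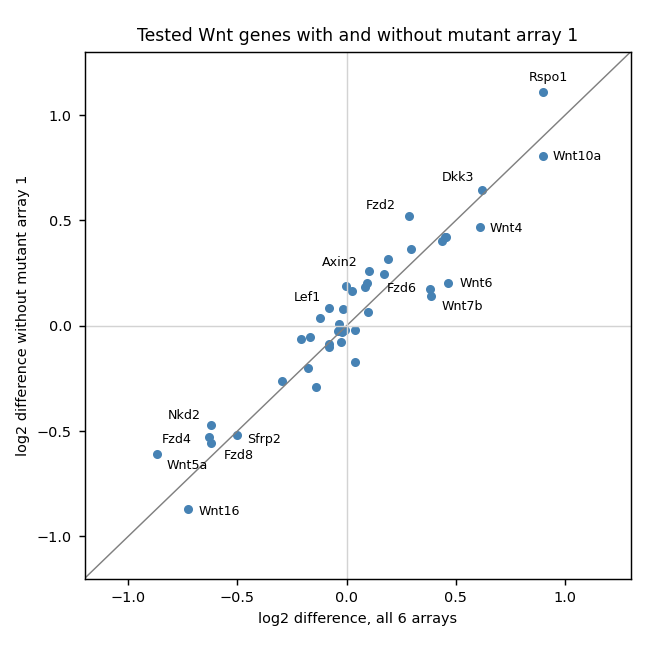
Each point is 1 of the 43 tested Wnt genes, with its log2 difference over all 6 arrays on the horizontal axis and without mutant array 1 on the vertical axis. The grey line marks equal values. Rspo1 moves from 0.90 to 1.11, Wnt5a from -0.87 to -0.61, and Wnt6 and Wnt7b from 0.47 and 0.39 to 0.20 and 0.14.

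Of 82 other genes of the pathway, from secretion to transcription, 76 were tested and 5 passed, 3 higher and 2 lower, or 6.58% beside 2.14% of all genes tested. Their median difference was 0.019. Among 12 tested surface or secreted modulators, 3 rose and 1 fell. Shisa3, which encodes a protein that holds Frizzled and FGF receptors in the cell, read 7.36, 7.86 and 8.10 in the mutants and 5.29, 5.02 and 5.30 in the controls, while its relative Shisa2 read 9.60, 9.48 and 9.92 in the mutants and 10.37, 10.46 and 10.35 in the controls. The groups were apart for both, in opposite directions. Shisa3 rose by 2.57 (adjusted p = 0.00320) and Shisa2 fell by 0.73 (adjusted p = 0.0360).

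Sostdc1, which encodes an antagonist of Wnt and BMP signalling in placodes and teeth, read 11.72, 11.96 and 11.65 in the mutants and 11.23, 11.21 and 11.19 in the controls. Cthrc1, a secreted Wnt cofactor gene, read 10.41, 10.21 and 10.23 in the mutants and 9.71, 9.79 and 9.66 in the controls. Both rose without overlap, by 0.57 (adjusted p = 0.0440) and 0.56 (adjusted p = 0.0335). Dact1, which encodes a partner of Dishevelled in mesenchyme, read 9.59, 10.05 and 10.04 in the mutants and 10.75, 10.61 and 10.56 in the controls. It fell by 0.75 (adjusted p = 0.0476) and was the only 1 of 19 cytoplasmic genes that passed. Shisa3 passed whichever of the 6 arrays was left out, whereas Shisa2, Sostdc1, Cthrc1 and Dact1 each lost the call in at least 4 of these 6 fits, with adjusted p-values of up to 0.193, 0.218, 0.190 and 0.205.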

How the data were processed

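The deposited table holds log2 values, 1 per probe set and array, made by the authors with RMA, per the submitters' processing notes, with no version named. RMA subtracts background, equalises the arrays' distributions and summarises the probes of each set, which shrinks differences at low signal and hides any shift common to most genes. Groups and replicate numbers came from the titles. The brightest probe set stood for a gene, over all 6 arrays, among 34945 probe sets with 1 symbol in the platform annotation; 932 with several symbols were left out. Genes with a mean in the lowest 25% (under 5.17) were not tested. The 2-sided test of mutant against control was that of limma 3.58.1 (R 4.3.3; lmFit, then eBayes), fitted and Benjamini-Hochberg adjusted over all 13645 tested genes, threshold 0.05, and the fit was tested on simulated data. Figures were drawn with matplotlib 3.10.9. Arrays have no read depth: their number limits the precision, and the median standard error of a Wnt gene's log2 difference was 0.142. Marker levels were summed as 2 to the power of the log2 value.

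The Wnt genes and the other lists were chosen with earlier results of these data known. Values of each array are given for genes with an unadjusted p under 0.05, for Sfrp genes and Frzb, for Lef1 and the feedback genes, and for the other pathway genes that passed; Tgfbr2 is named as the targeted gene, and up to 4 further genes per list by smallest p; Lgr4, Dkk1 and Dkk4 were added after their values were seen. No label says what a replicate number stands for. After subtraction of group means, the residuals of arrays with equal numbers had correlations of 0.309, 0.105 and 0.206 over the tested genes, all above the limit of 0.1, and the numbers were treated as pairs by that rule. Unequal numbers gave 0.196 (mutant 2 with control 3) and 0.147 (mutant 3 with control 2), both above the 0.105 of the second pair, so the pairing is weakly supported. The alternatives tried are given with the dependence on the processing.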

Additional observations from a re-analysis of the deposited data

How the results depend on the processing

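The count of Wnt genes that passed (2 of 43) was 1 when a gene's probe sets were averaged. It was 4 with the replicate block and 11 with array quality weights. At an adjusted p under 0.1 it was 7, and with the Xist level as a covariate it was 0. With that covariate, 12 of the 43 and 1731 of all 13645 genes had an unadjusted p under 0.05 in limma. Over the fits that left out 1 array the Wnt count was 0 to 6. The count over all genes (292) was 151 when the dimmest 50% were removed, 1034 with the weights, 490 with the block, 111 with the covariate, 549 at 0.1 and 16 to 670 with 1 array left out. For the other pathway genes (5) it was 2 without the dimmest 50%, 3 with every probe set on its own, 10 with the weights, 1 with the covariate and 1 to 7 with 1 array left out. The median of the Wnt genes was -0.036 to 0.080 with 1 array left out. No filter, median centring, quantile normalization, trend and robust fitting and a fold of at least 1.5 left the Wnt count at 2. Among 20 named Wnt genes the sign changed for 5, never past the threshold: Sfrp1 gave -0.0011 with the covariate and -0.12 to 0.16 with 1 array left out, Sfrp5 0.19 as the mean of its probe sets, 0.0027 with the weights and -0.079 to 0.026, Lef1 0.089 with the weights, -0.29 as the mean of its probe sets and -0.20 to 0.083, Nkd1 0.0034 with the weights and -0.27 to 0.038, and Axin2 -0.051 to 0.26. Of the 315 alternative values of these 20, 278 kept their sign and their side of the threshold. The block ended no call of a Wnt gene. The cause of these changes was not tested. The covariate, the block and each left-out array all reduce the residual degrees of freedom, and the counts rose in some of these fits and fell in others.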

Other observations

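Genes of planar cell polarity, the arrangement of cells within a tissue plane that Wnt5a and some Frizzled receptors are known to steer, gave 0 calls of 12 tested in limma, with 4 at an unadjusted p under 0.05. Over all tested genes 2.14% were called and 16.9% reached that unadjusted p. Among the co-receptors and other Wnt receptors, 0 of 11 passed, with 2 at an unadjusted p under 0.05. These were Ror1, a receptor kinase for Wnt5a, at 0.50 (adjusted p = 0.0972), and Musk, the receptor kinase of the neuromuscular junction, at -0.65 (adjusted p = 0.0769), and neither gene's groups overlapped. Bambi, a pseudoreceptor that dampens TGF-beta and BMP signals, gave 0.56 (adjusted p = 0.131), and Sost, an antagonist of the Wnt co-receptors, 0.43 (adjusted p = 0.0845). Of 12 tested nuclear genes limma called 0, with 1 at an unadjusted p under 0.05.

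Skeletal muscle markers had a lower mean in the mutants for 10 of 12 genes, with a median of -0.35 and 0 calls (5 at an unadjusted p under 0.05), led by Des (-0.69, adjusted p = 0.155) and Acta1 (-0.67, 0.202). Macrophage markers differed in both directions: Mrc1 fell by 1.53 (adjusted p = 0.00775) and C1qa rose by 1.05 (0.0152), with 5 of 7 higher. Of 5 tested markers of Schwann cells and neurons, 3 had a higher and 2 a lower mean, with a median of 0.22. Stmn2 of this list rose by 1.07 (adjusted p = 0.0272, limma). Relative to the controls the list median was -0.44, 0.50 and 0.43 in mutant arrays 1, 2 and 3. Among cartilage markers Col9a1 rose by 0.87 (adjusted p = 0.0283, limma), while 3 of 4 tested genes had a lower mean and the median was -0.085. Markers of papillae and placodes had a median of 0.17 over 5 genes with 0 calls (1 at an unadjusted p under 0.05, Sox2 at 0.72), and those of red blood cells had a median of -0.21 over 3 genes with 0 calls (1 at an unadjusted p under 0.05).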
